A study of Homo sapiens with 4 samples.

Results

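The tumour necrosis factor (TNF) receptor genes described here are NGFR, TNFRSF19, TNFRSF1A, TNFRSF21, FAS, TNFRSF10A, TNFRSF10B, LTBR, TNFRSF12A and TNFRSF11B, which are 10 of the 19729 genes in the deposited values. They were chosen by gene symbol, matched through GENCODE v29 to the Ensembl identifiers of the values. NGFR and TNFRSF19 were selected because the study lists them as induced by APC silencing in these same libraries, and FAS is on the same list with the opposite sign. The other members are receptors of the same family, death receptors included, set beside them. The difference of NGFR, TNFRSF19 and FAS between the conditions is therefore given as a description, with no test.

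HT-29 is a human colorectal cancer cell line, labelled as microsatellite stable (MSS), BRAF-V600E and APC-mutant. The cells carried a lentiviral shRNA under the control of doxycycline (DOX), against APC (APC shRNA) or non-silencing (NonS), and were used at passages 3 to 5 after transduction. Both conditions received 500 ng/ml DOX for 72 h, so the NonS cells share the inducer as well as the viral transduction and the truncated APC of the parental line. Polyadenylated RNA was sequenced in duplicates I and II of each condition, 4 libraries in all, from 1 cell line and 1 shRNA per condition. An effect of the shRNA or of the transduced cell pool other than APC silencing cannot be told apart from the condition.

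Receptors of the TNF superfamily are membrane proteins with cysteine-rich extracellular repeats that bind trimeric ligands of the TNF family. Those with a cytoplasmic death domain, such as TNFRSF1A, FAS and the TRAIL receptors TNFRSF10A and TNFRSF10B, recruit adaptors that activate caspase-8, and TNFRSF1A also activates NF-kB. Receptors without a death domain, such as LTBR and TNFRSF12A, bind TRAF proteins and activate NF-kB. NGFR, the low-affinity neurotrophin receptor p75, has a death domain but binds neurotrophins, and it is best known from neurons, Schwann cells and neural crest derivatives. TNFRSF19 (TROY), a TRAF-binding receptor, is known as a Wnt target and a marker of intestinal stem cells.

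The deposited values are whole numbers of unstated scale that behave as length-scaled scores and not as read counts, so they are called values here and the number of reads behind them is unknown. They summed to between 398338 and 413595 per library, and 12799 genes were above 0 in at least 1 library. APC was listed at 3 in NonS I and at 0 in the other 3 libraries, so these values do not check the labels. All 9 markers of colon epithelium were above 0 in some library. Their summed values, most of them from KRT8 and KRT18, were 3272 and 3939 in NonS and 4094 and 4163 in APC shRNA. Without overlap, KRT18, VIL1 and CDX2 were higher and CDH1, CDX1 and CEACAM5 lower in APC shRNA. These 3 and 3 of the 9 stand beside 25.9% and 19.1% of the genes above 0. CDX2 was 0 in both NonS libraries and 2 and 4 in APC shRNA. CDX1 was 2 in both NonS libraries and 0 in both APC shRNA libraries. CEACAM5 was 10 and 11 in NonS and 3 in each APC shRNA library. The Schwann cell and neural crest markers SOX10, S100B and CDH19 were listed at 0 in every library, as were all 6 fibroblast and all 4 endothelial markers. Of the immune cell markers, PTPRC and CD3E were at 0, CD68 was 3 to 6 and LYZ, which gut epithelium also makes, was 614 to 906. A difference was tested with limma on log2(value + 1) in the 5376 genes whose mean over the libraries reached 10, and it is always APC shRNA minus NonS. A gene was called at a Benjamini-Hochberg adjusted p under 0.05 over all genes tested.

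NGFR was the member listed at 0 in NonS that reached 10 or more in APC shRNA libraries. Its value was 0 in NonS I and in NonS II, 10 in APC shRNA I and 14 in APC shRNA II. The groups did not overlap, and no fold is given because NonS was listed at 0. NGFR lies on chromosome 17 of GRCh38 from 49495293 to 49515017 on the plus strand. Its mean of 6 over the 4 libraries was below the filter of 10. Exons of AC015656.1 and AC006487.1 on the opposite strand share 924 and 202 of the 4150 exonic bases of NGFR. The library kit was stranded, but the strand option of the authors' counting is not given in the sources used here. Of the Schwann cell and neural crest markers, SOX10, S100B and CDH19 were at 0, and ERBB3, which epithelia also express, was 46 to 61. In RNA of a whole culture, a few cells with much NGFR cannot be told apart from many cells with a little.

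TNFRSF19, selected on the same ground, was listed at 0 in NonS I, NonS II and APC shRNA I and at 1 in APC shRNA II. The groups overlapped at 0, and the only value above 0 was the smallest step the values can take. TNFRSF19 lies on chromosome 13 from 23570370 to 23676104 on the plus strand, and no exon of another gene overlaps its exons. A promoter was found for 5 of the 10 members in a RefSeq table of GRCh38.p14, with 8 entries in all. NGFR, TNFRSF10A, TNFRSF10B, TNFRSF11B and TNFRSF12A had no entry, so their promoters were not searched. Of the windows, 3 held 208 to 250 bases upstream of the whole gene. They are shown because the cells differ in a regulator of Wnt signalling, whose TCF/LEF factors bind short words of DNA. The word CTTTGAT was searched, and was present in 2.26% of all 35116 promoters of the table. Next came CTTTGAA with a share of 3.8%, then the word CTTTGTT with a share of 4.5%, and last CTTTGTA with a share of 2.35%. Each was searched on both strands in the 250 bases before the RefSeq start, and 12% of all promoters held at least 1 of the 4. Neither window of TNFRSF19 held any of them. The bases directly upstream of the gene, chr13:23570162-23570369 on the plus strand, read as follows.
TNFRSF19: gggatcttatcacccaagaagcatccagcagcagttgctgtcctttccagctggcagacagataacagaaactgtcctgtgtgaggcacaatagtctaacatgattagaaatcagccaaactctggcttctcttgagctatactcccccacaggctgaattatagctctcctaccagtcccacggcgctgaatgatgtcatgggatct

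Of the members with a death domain, TNFRSF1A, the main receptor of TNF itself, fell in APC shRNA libraries and was the only member called. Its value was 19 in NonS I, 20 in NonS II and 12 in both APC shRNA libraries. The groups did not overlap, and the replicates of each condition were at most 1 unit apart. TNFRSF1A fell by 0.66 on the log2(value + 1) scale (standard error 0.056, 95% interval -0.83 to -0.48, Benjamini-Hochberg adjusted p = 0.0428 in limma), and the ratio of its means was 0.615. Of the 5376 genes tested, 4.33% were called higher and 3.70% were called lower in APC shRNA, with 0.0423 as the lowest adjusted p in the fit. Leaving out any of the 4 libraries leaves a group with a single library, too few to keep any call, that of TNFRSF1A included. Its difference was then between -0.69 and -0.62. The gene lies on chromosome 12 from 6328757 to 6342114 on the minus strand, and no exon of another gene overlaps its exons.

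Upstream of TNFRSF1A, chr12:6342115-6342326 on the minus strand, CTTTGTA was found on the strand opposite to the gene, 92 bases before the RefSeq start. It appears as TACAAAG, in capitals, in the sequence read along the gene. The match is of letters alone, and binding was not measured.
TNFRSF1A: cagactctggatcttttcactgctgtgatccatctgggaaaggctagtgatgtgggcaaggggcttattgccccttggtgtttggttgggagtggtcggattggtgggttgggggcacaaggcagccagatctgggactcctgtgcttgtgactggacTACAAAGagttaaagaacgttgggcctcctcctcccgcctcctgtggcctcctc

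TNFRSF21 (DR6), a death domain receptor of the nervous system and of lymphocytes, had the member mean closest to that of TNFRSF12A in APC shRNA libraries. Its value was 50 in NonS I, 59 in NonS II, 61 in APC shRNA I and 79 in APC shRNA II. The groups did not overlap, but NonS II and APC shRNA I were closer to each other than either was to its own replicate. The difference was 0.35 (standard error 0.18, 95% interval -0.21 to 0.91, adjusted p = 0.264 from limma) and was not called. TNFRSF21 lies on chromosome 6 from 47231532 to 47309905 on the minus strand. Its promoter held none of the words searched, as the bases directly upstream of the gene, chr6:47309906-47310155 on the minus strand, show.
TNFRSF21: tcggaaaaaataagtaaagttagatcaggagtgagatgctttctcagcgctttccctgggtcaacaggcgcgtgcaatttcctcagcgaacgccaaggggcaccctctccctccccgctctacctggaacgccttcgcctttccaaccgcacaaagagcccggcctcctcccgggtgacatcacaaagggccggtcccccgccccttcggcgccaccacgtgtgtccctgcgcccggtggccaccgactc

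FAS, the receptor of FAS ligand and an activator of caspase-8, was 3 in NonS I, 2 in NonS II and 1 in each APC shRNA library. The groups did not overlap, with values of 1 to 3 that lay below the filter. FAS lies on chromosome 10 from 88990582 to 89015785 on the plus strand and shares 380 exonic bases with ACTA2 on the opposite strand, which was listed at 0 or 1. CTTTGAA was found in its RefSeq windows, at a place inside the annotated gene, and LTBR held none of the words. FAS ligand (FASLG) was listed at 0 in every library.

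TNFRSF10A and TNFRSF10B are the death receptors of TRAIL (TNFSF10). TNFRSF10B (chromosome 8 from 23020133 to 23069179, minus strand) was 19 in NonS I, 23 in NonS II, 19 in APC shRNA I and 25 in APC shRNA II. The groups overlapped, and in both conditions the replicate II library was the higher one. Its difference was 0.06 (standard error 0.19, 95% interval -0.53 to 0.65, adjusted p = 0.844 from limma), and the sign turned when NonS I or APC shRNA II was left out. TNFRSF10A (chromosome 8 from 23190452 to 23225126, minus strand) was 7 in both NonS libraries, 5 in APC shRNA I and 6 in APC shRNA II. The groups did not overlap and differed by 1 to 2 units, below the filter. TNFRSF10A shares 224 exonic bases with TNFRSF10A-AS1 and 266 with AC100861.1, both on the opposite strand. TRAIL itself was 5 and 9 in NonS and 6 and 10 in APC shRNA, so its groups overlapped. The TRAIL decoy receptor TNFRSF10D was 6 and 4 in NonS and 5 and 4 in APC shRNA, and the other decoy, TNFRSF10C, was listed at 0. Both decoys and TRAIL were picked here with their values known.

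**Figure D1:**
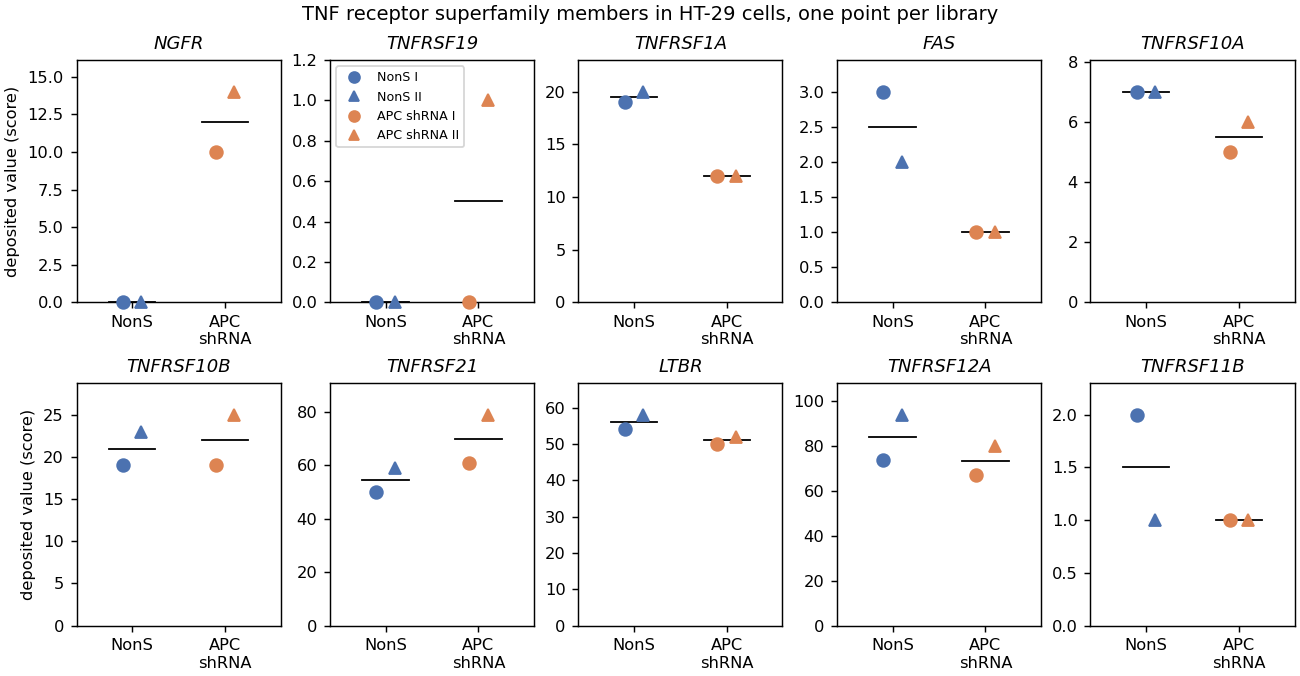
Deposited value of each of the 10 members in the 4 libraries, with 1 point per library (NonS and APC shRNA, replicates I and II) a line at each mean, and a panel per gene whose vertical axis starts at 0 and has its own range. NGFR goes from 0 and 0 to 10 and 14, TNFRSF1A goes from 19 and 20 to 12 and 12, and TNFRSF10B overlaps between the conditions.

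Among the members without a death domain, TNFRSF12A and LTBR were tested and neither was called. TNFRSF12A (Fn14), the receptor of TWEAK, had the highest mean of the members in both conditions. Its value was 74 in NonS I, 94 in NonS II, 67 in APC shRNA I and 80 in APC shRNA II. The groups overlapped, since APC shRNA II lay above NonS I. Within replicate I and within replicate II the APC shRNA library was the lower one, but the replicate numbers share no stated origin. The means were 84.0 ± 14.1 in NonS and 73.5 ± 9.19 in APC shRNA (SD, n = 2 each), and the difference of -0.19 (standard error 0.18, 95% interval -0.73 to 0.36) had an adjusted p of 0.495 from limma. TNFRSF12A lies on chromosome 16 from 3018445 to 3022383 on the plus strand. Its ligand TWEAK (TNFSF12) was 0 in NonS I and 1 in each other library.

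LTBR, the lymphotoxin beta receptor, was 54 in NonS I, 58 in NonS II, 50 in APC shRNA I and 52 in APC shRNA II. The groups did not overlap, with the APC shRNA libraries lower. The difference of -0.13 (standard error 0.067, 95% interval -0.34 to 0.08, adjusted p = 0.258 from limma) was not called. LTBR lies on chromosome 12 from 6375045 to 6391571 on the plus strand and shares 422 of its 6280 exonic bases with SCNN1A, an epithelial sodium channel gene on the opposite strand. SCNN1A was 53 and 70 in NonS and 21 and 22 in APC shRNA, and its part in the value of LTBR was not tested. Of the ligands of LTBR, LTA and TNFSF14 were listed at 0 in every library, and LTB was 0 in NonS and 1 in each APC shRNA library.

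TNFRSF11B (osteoprotegerin), a secreted decoy for RANK ligand (TNFSF11), was 2 and 1 in NonS and 1 in both APC shRNA libraries, so the groups overlapped. It lies on chromosome 8 from 118923557 to 118952200 on the minus strand. RANK ligand was listed at 0 throughout. Its receptor RANK (TNFRSF11A) was 4 in both NonS libraries and 2 in both APC shRNA libraries, below the filter. RANK was picked with its values known.

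Counted together, 5 of the 10 members passed the filter and 5 did not, and of the 5 tested 0 were called higher and 1 was called lower. This stands beside the 4.33% and 3.70% of all genes tested. Among the 5 tested, the groups did not overlap in 1 member that was higher (TNFRSF21) and 2 that were lower (TNFRSF1A and LTBR) in APC shRNA. In all genes tested, 33.0% did not overlap and were higher and 27.5% did not overlap and were lower. Over all 10 members the counts were 2 higher and 4 lower, beside 25.9% and 19.1% of the 12799 genes above 0, and nothing is read from them because 3 members were selected on this contrast. The median difference of the 5 tested members was -0.13, and that of all genes tested was 0.03.

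**Figure D2:**
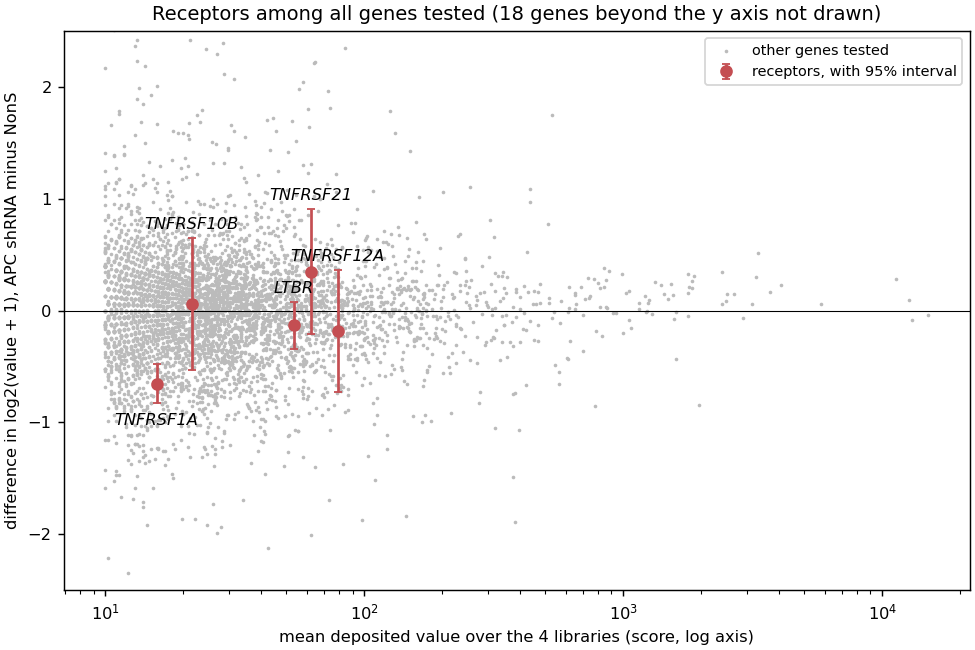
Difference in log2(value + 1), APC shRNA minus NonS, against the mean value over the 4 libraries on a log axis, for the other genes tested (grey) and for the 5 members tested, with 95% intervals from limma. The vertical axis leaves out 18 of the other genes. Among the 5 members only the interval of TNFRSF1A lies wholly on 1 side of 0, from -0.83 to -0.48.

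By value, NGFR moved from the bottom of the order in NonS to its middle in APC shRNA libraries, as its selection fixed. In NonS the highest value was that of TNFRSF12A, followed by LTBR and TNFRSF21, whose libraries overlapped, then by TNFRSF10B and TNFRSF1A, which also overlapped, and by TNFRSF10A. FAS and TNFRSF11B overlapped below them, and NGFR and TNFRSF19 were at 0. In APC shRNA libraries TNFRSF12A and TNFRSF21 overlapped at the top, LTBR and TNFRSF10B came next, and NGFR, with a mean of 12, overlapped with TNFRSF1A, also with a mean of 12. TNFRSF10A followed, and FAS, TNFRSF11B and TNFRSF19 were not separated. These orders compare the deposited values, which already fall with transcript length across genes.

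The summed value of the 10 members was higher in replicate II than in replicate I of both conditions. It was 228 in NonS I, 264 in NonS II, 226 in APC shRNA I and 271 in APC shRNA II. The replicate II library was above replicate I for 5 members and below it for 2 in NonS, and above it for 7 members and below it for 0 in APC shRNA. The members held 87.0% and 88.0% of the summed value of 29 receptors of the superfamily in NonS and 89.3% and 90.0% in APC shRNA. TNFRSF12A alone held between 26.5% and 31.3%.

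The other 19 receptors of the superfamily were low or listed at 0. Of these, 9 were listed at 0 in all libraries and 1 passed the filter, the herpesvirus entry mediator TNFRSF14. It was 13 and 19 in NonS and 9 and 11 in APC shRNA, without overlap, and its difference of -0.61 (standard error 0.24, adjusted p = 0.185 from limma) was not called. It was the only 1 of the 19 with a test, and its unadjusted p was not under 0.05. Among the 10 of the 19 above 0 in some library, the groups did not overlap in 1 that was higher and 2 that were lower. This stands beside 25.9% and 19.1% of all genes above 0.

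Most ligands of the family were listed at 0 as well. Of 18 ligands, 12 were at 0 in every library, TNF, the ligand of TNFRSF1A, among them, and 6 were above 0 somewhere with none reaching the filter. In 2 of them, LTB and TNFSF15, the groups did not overlap and APC shRNA was higher, beside 25.9% of all genes above 0. TNFSF15 was 3 in both NonS libraries and 4 and 5 in APC shRNA, and both ligands were picked with their values known.

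**Figure D3:**
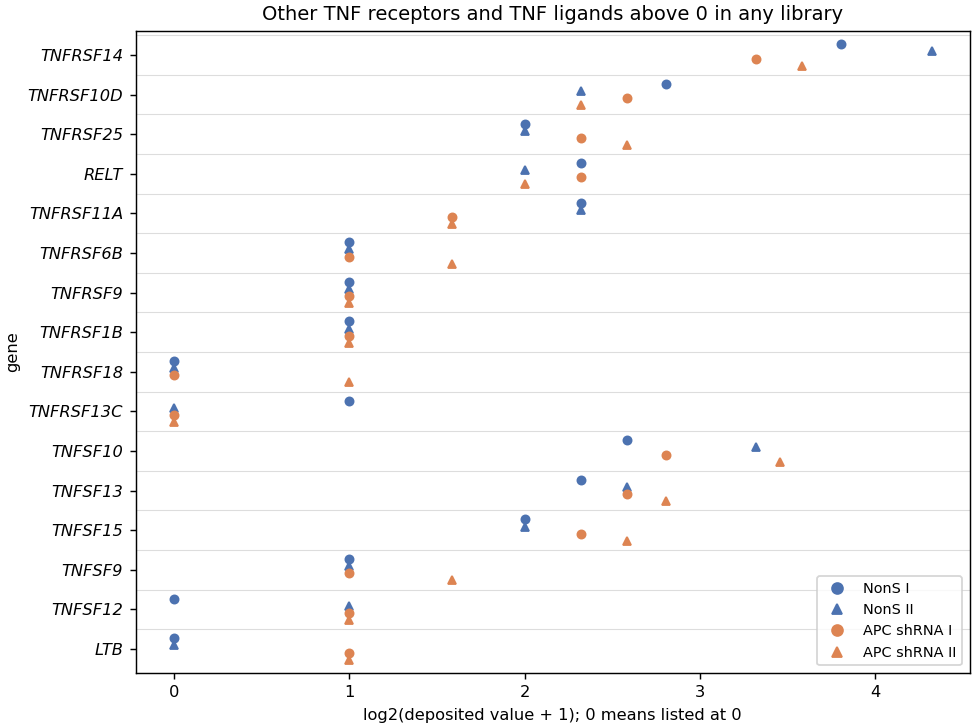
The log2(value + 1) of the other TNF superfamily receptors and of the ligands that were above 0 in some library, with 1 point per library and colours for NonS and APC shRNA. TNFRSF14, with values of 13 and 19 in NonS and 9 and 11 in APC shRNA, has the highest values among the receptors, and TRAIL (TNFSF10) has the highest among the ligands.

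The ligands and signalling partners of p75, the product of NGFR, were measured next to it. The neurotrophins BDNF and NTF3 and the neurotrophin receptors NTRK2 and NTRK3 were listed at 0 in every library. NTF4 was 1 in both NonS libraries and 1 and 3 in APC shRNA. Of the 19 genes of this list, 10 were above 0 in some library and 6 passed the filter. With limma 0 of the 6 were called, beside 4.33% higher and 3.70% lower of all genes tested. Of the 5376 genes tested 1912 had an unadjusted p under 0.05, and 2 of the 6 did. The tested genes with the highest means were ARHGDIA, a GDP dissociation inhibitor that binds p75, at 110 and 125 in NonS and 118 and 114 in APC shRNA (adjusted p = 0.916 from limma), and APH1A, a subunit of the gamma-secretase that cleaves p75, at 72 and 86 in NonS and 82 and 100 in APC shRNA (adjusted p = 0.424 from limma). Both overlapped between the conditions. The adaptor MAGED1 (NRAGE) was 53 and 54 in NonS and 68 and 73 in APC shRNA, and the gamma-secretase subunit PSENEN was 44 and 52 in NonS and 66 and 71 in APC shRNA. Neither overlapped between the conditions or was called (adjusted p = 0.0629 and 0.0883 from limma), and both were picked with their values known. The co-receptor sortilin (SORT1) was 17 and 16 in NonS and 18 in both APC shRNA libraries (adjusted p = 0.242 from limma). Over the 6 genes tested the median difference was 0.29, and in 4 of them the groups did not overlap and APC shRNA was higher, beside the 33.0% of all genes tested.

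By the distance of log2(value + 1) over the 4 libraries, the genes most like NGFR were DPYSL3 (distance 0.504), TGFB3 (0.681) and IL23A (0.727). All 3 were listed at 0 in both NonS libraries, as NGFR was, which the choice by distance brings with it. DPYSL3 was 7 and 12, TGFB3 16 and 17, and IL23A 6 and 11 in APC shRNA I and II. For FAS no such order exists, because 15 genes had exactly its 4 values.

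Downstream of the death domain receptors, all 17 adaptors, caspases and their regulators were above 0 in some library and 7 passed the filter. With limma 0 of the 7 were called, beside 4.33% higher and 3.70% lower of all genes tested. Of the 7, 1 had an unadjusted p under 0.05, as had 1912 of the 5376 genes tested. The median difference of the 7 was -0.01. FADD, the adaptor of FAS and of the TRAIL receptors, was 33 and 39 in NonS and 31 and 41 in APC shRNA (adjusted p = 0.995 from limma). BID, which caspase-8 cleaves, was 19 and 20 in NonS and 21 and 23 in APC shRNA (adjusted p = 0.222 from limma). Over all 17, the groups did not overlap in 3 genes that were higher and 3 that were lower, beside 25.9% and 19.1% of all genes above 0. CASP8 itself was 11 and 12 in NonS and 10 and 11 in APC shRNA and was picked with its values known.

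Of 23 TRAF proteins and NF-kB transducers, 9 passed the filter. With limma 0 of the 9 were called, beside 4.33% higher and 3.70% lower of all genes tested. Of the 9, 4 had an unadjusted p under 0.05, as had 1912 of the 5376 genes tested. TRAF4 was 41 and 49 in NonS and 57 and 58 in APC shRNA (adjusted p = 0.138 from limma), without overlap. RBCK1, a subunit of the linear ubiquitin chain ligase, was 31 and 42 in NonS and 34 and 47 in APC shRNA (adjusted p = 0.708 from limma). TRAF2, the transducer that TNFRSF1A recruits through TRADD, was 19 and 20 in NonS and 15 and 16 in APC shRNA (adjusted p = 0.0809 from limma), and was picked with its values known. The median difference of the 9 was 0.14. Over all 23, the groups did not overlap in 5 that were higher and 3 that were lower, beside 25.9% and 19.1% of all genes above 0.

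Of 15 NF-kB target genes, 14 were above 0 in some library and 4 passed the filter. With limma 0 of the 4 were called, beside 4.33% higher and 3.70% lower of all genes tested. Of the 4, 0 had an unadjusted p under 0.05, beside 1912 of the 5376 genes tested. IER3 was 43 and 58 in NonS and 56 and 86 in APC shRNA (adjusted p = 0.345 from limma), and TNIP1 was 41 and 59 in NonS and 33 and 41 in APC shRNA (adjusted p = 0.318 from limma). Of the 14 above 0, the groups did not overlap in 7 that were higher in APC shRNA, all below the filter, and in 0 that were lower. Of all genes above 0 the shares were 25.9% and 19.1%, which include the genes that passed the filter. Of the 7, chosen once their values were known, TNFAIP3, an inhibitor of NF-kB, was 1 in both NonS libraries and 3 and 6 in APC shRNA, and the neutrophil chemokine CXCL8 was 1 and 2 in NonS and 4 and 5 in APC shRNA. The related chemokine CXCL1 was 1 and 2 in NonS and 6 and 8 in APC shRNA. The rest of the 7 were CXCL2, CXCL3, ICAM1 and NFKBIE. CXCL1, CXCL2 and CXCL3 are close paralogs, and how reads that match more than 1 of them were handled was not tested. Moreover, 1 unit of rounding is large beside these values.

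**Figure D4:**
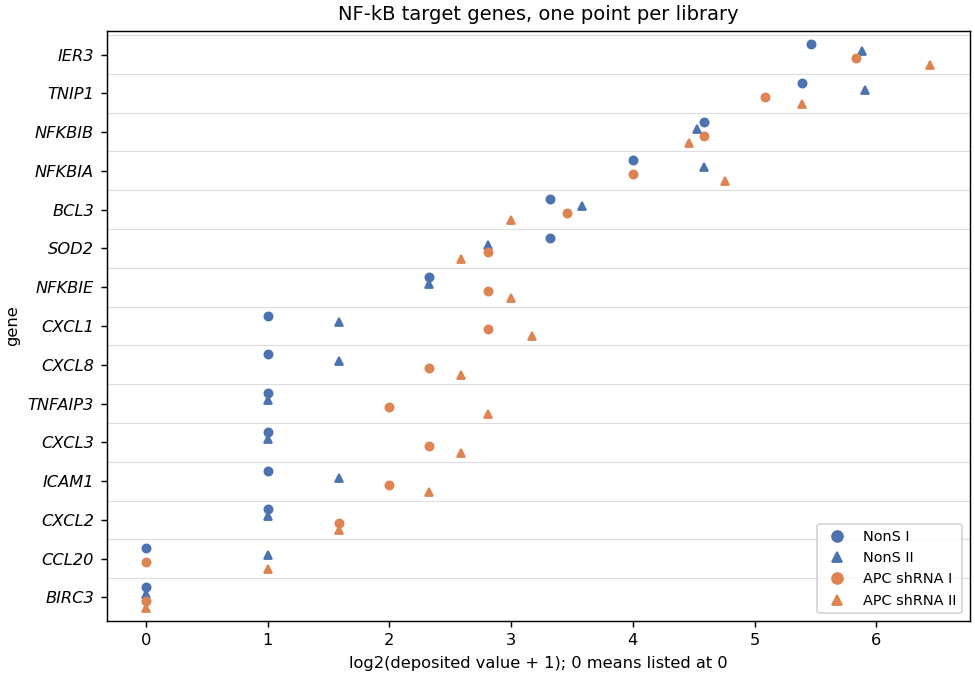
The log2(value + 1) of the 15 NF-kB target genes, with 1 point per library and colours for NonS and APC shRNA. The 7 genes without overlap lie at low values, such as CXCL1 with values of 1 and 2 in NonS and 6 and 8 in APC shRNA, and IER3 and TNIP1, with the highest values, overlap between the conditions.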

How the data were processed

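RNA of 4 HT-29 libraries, NonS I and II and APC shRNA I and II, was compared. The authors demultiplexed the reads with bcl2fastq 2.19.0.316 (processing notes), mapped them to the human genome with TopHat2, assigned them to GENCODE v29 genes by htseq-count and used DESeq2 1.4.1 (processing notes). The processing notes name hg19 and the methods assembly 38. For each gene and library the authors deposited a whole number, treated here as a score of unstated scale: replicates varied 0.496 (NonS) and 0.345 (APC shRNA) times as much as independent reads would, and the sum of value times longest transcript in kb was 980841 to 984873 in every library. Depth is thus unknown, and no count model or counting interval was used. The authors' table of mean, fold change and adjusted p was not used.

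The log2(value + 1) of 5376 genes with a mean of at least 10 was compared with limma 3.58.1 (lmFit, then eBayes with trended variance, R 4.3.3), without rescaling and with Benjamini-Hochberg adjustment over all genes tested. Such differences understate the change of low genes. The code was tested on simulated data. For 1 gene, the smallest p of an exact two-sided permutation test is 0.333 with these 4 libraries. The study calls the duplicates biological but nothing ties them to separate cultures, so p-values measure the spread between these libraries. Symbols, positions and overlaps come from GENCODE v29 (19502 of 19729 identifiers matched), and promoters from RefSeq (GRCh38.p14). Tables and figures used Python 3.11.15, pandas 2.3.3, scipy 1.17.1 and matplotlib 3.10.9. The members, pathway lists and markers were chosen with earlier results of these data known. Some genes of the lists are not reported here. Every member is named, and of each list the called genes or, with none called, the 2 tested genes with the highest mean. Other filters, pseudocounts, scalings, a replicate block and each library left out were tried as alternatives.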

Additional observations from a re-analysis of the deposited data

How the results depend on the processing

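At an adjusted p under 0.05 from limma, 233 genes were called higher and 199 lower in APC shRNA. With no filter on the 12799 genes above 0 the counts were 952 and 515. Robust moderation gave 368 and 352, and scaling by median of ratios and to equal totals gave 305 and 369 lower. At least 10 in every library gave 139 higher. A fold change over 4 with an adjusted p under 0.01 gave 0 and 0. The lowest adjusted p in the limma fit was 0.0423, so no gene could pass 0.01 whatever its fold. In that fit 1912 genes had an unadjusted p under 0.05. Leaving out 1 library in turn gave 0 to 0 in both directions. The replicate block gave 523 and 500. The replicate numbers share no stated origin, and across genes the difference II minus I of the conditions had a correlation of 0.724, over only 2 pairs. The block changed no call among the members, with an adjusted p of 0.0468 for TNFRSF1A. For the other tested members the adjusted p from limma fell with the block. It was 0.0699 for TNFRSF21, 0.115 for TNFRSF12A, 0.140 for LTBR and 0.466 for TNFRSF10B. The block called 1 gene higher in each of the lists of p75 partners and of death domain adaptors and caspases. Without the filter NGFR was called too, which is no test because it was selected on this contrast. Outside the members, 1 other receptor (lower), 1 ligand (higher) and 1 death domain gene in each direction were called. So were 1 TRAF or NF-kB transducer (higher), 2 NF-kB targets (higher) and 2 colon markers (lower). These stand beside the 952 and 515 of all 12799 genes. Replicates of each condition had equal whole numbers in LTB, TRAF1, TNFRSF11A, CASP9, MLKL, CXCL2 and CDX1, so rounding limits these calls. With all libraries kept, the difference of TNFRSF1A was between -0.70 and -0.53 (adjusted p from 0.0118 to 0.0481) over 9 alternatives. TNFRSF21, TNFRSF12A, TNFRSF10B and LTBR were called under none of the 9 alternatives that kept all libraries. The difference of TNFRSF10B was -0.07 without NonS replicate I and -0.13 without APC shRNA replicate II. The cause was not tested. Values are whole numbers, so for NGFR, TNFRSF19, FAS, TNFRSF10A and TNFRSF11B rounding limits what can be compared. Rounding also bears on the spread, and so on the call, of TNFRSF1A. Its values were 19 and 20 in NonS and 12 in both APC shRNA libraries.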
